A study of Mus musculus with 2 samples.

Results

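The cytosolic ribosomal protein genes were followed through 2 single-cell libraries of cultured mouse hematopoietic stem cells. Members were taken by gene symbol alone, as Rpl or Rps followed by a digit together with Rplp0, Rplp1, Rplp2 and Rpsa. Pseudogene symbols (-ps), Rpl7l1, Rpl22l1, Rps19bp1 and the ribosomal protein S6 kinases were left out. This gave 83 of the 32285 genes in the deposited matrices, 50 of the large (60S) and 33 of the small (40S) subunit.

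The cells, labelled as blood tissue of the cell type hematopoietic stem cells, were kept in suspension for 48 h in RO-3066 or in dimethyl sulfoxide (DMSO), the vehicle, and profiled with the 10x Genomics 3′ workflow. The labels state neither the target nor the dose of RO-3066, and give no strain, age or genotype of the mice. There was 1 library per treatment, so differences between the treatments rest on a single culture each, with no replicates and no tests. After filtering, the DMSO library held 5832 cells with a median of 23973 unique molecular identifiers (UMIs, each a captured transcript end) and the RO-3066 library 3682 cells with a median of 34740.5.

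Each cytosolic ribosome joins a small subunit, which binds messenger RNA and decodes it, to a large subunit, which forms peptide bonds and releases the growing chain through an exit tunnel. The proteins of both subunits are needed in near-equal numbers, and their messenger RNAs are among the most abundant of dividing cells. In mammals their transcripts typically begin with a C followed by a run of pyrimidines, the 5′ terminal oligopyrimidine (TOP) motif, through which the growth kinase mTORC1 and the binding protein Larp1 control their translation. Blood formation is sensitive to the dosage of these genes: loss of a single copy of several of them causes Diamond-Blackfan anemia, and loss of RPS14 contributes to the 5q- syndrome. In megakaryocytes, the platelet-forming cells, Pf4 encodes platelet factor 4, a chemokine stored in granules.

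Start-site sequences are given first for the members at both ends of the RO-3066 over DMSO order described further on, since the pyrimidine run is the sequence feature these genes are best known to share. The letters are from RefSeq (GRCm38.p6), run 5′ to 3′ on the coding strand from 10 bases before the annotated start through 20 bases from it. Capitals mark every run of a C followed by at least 4 letters C or T in that window. The first set has the 5 highest ratios among members with an entry in the RefSeq table, 1.30-fold to 1.34-fold, with all annotated starts of each gene.
Rpl12, chr2:32961702-32961731, plus strand: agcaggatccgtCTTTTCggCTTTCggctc
Rps12, chr10:23787190-23787219, minus strand: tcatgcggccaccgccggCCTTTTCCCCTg
Rpl13a, chr7:45128726-45128755, minus strand: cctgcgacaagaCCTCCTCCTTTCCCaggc
Rps19, chr7:24884582-24884611, plus strand: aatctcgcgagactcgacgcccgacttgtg
Rps19, chr7:24884666-24884695, plus strand: cggtgagtgagggctctgggtcgcggctgt
Rps19, chr7:24884903-24884932, plus strand: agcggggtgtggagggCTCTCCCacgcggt
Rps21, chr2:180257369-180257398, plus strand: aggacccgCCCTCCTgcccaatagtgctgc
Rps21, chr2:180257439-180257468, plus strand: agtgagcaggtaggcctcggtgcgggctgt

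The second set has the 5 lowest ratios, 0.817-fold to 0.956-fold.
Rpl36al, chr12:69184048-69184077, minus strand: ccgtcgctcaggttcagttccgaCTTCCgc
Rps27l, chr9:66946076-66946105, plus strand: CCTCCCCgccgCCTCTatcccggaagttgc
Rps27l, chr9:66946403-66946432, plus strand: gggcttcagggtcactaacgggcctcgcag
Rpl27, chr11:101442235-101442264, plus strand: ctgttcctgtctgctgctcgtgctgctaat
Rps26, chr10:128626487-128626516, minus strand: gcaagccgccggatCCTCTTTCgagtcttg
Rpl11, chr4:136053374-136053403, minus strand: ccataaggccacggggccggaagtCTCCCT
A run lay in 5 of the 8 windows of the first set and in 4 of the 6 of the second. Counting only runs that begin within 10 bases of the start, the counts were 5 of 8 and 2 of 6. These sets are small and chosen by ratio, so the counts over all members follow.

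A start table entry was found for 63 members. A run beginning within 10 bases of an annotated start was present in 39 of them (61.9%), against 34.4% of the 27025 genes with an entry. Counted by start rather than by gene, 41 of 75 member starts (54.7%) and 30.7% of all 32851 starts held it. Within 30 bases, a window chosen after the first counts, the shares were 90.5% of members and 64.9% of all genes. The motif was sought on the coding strand only, and these counts describe letters near annotated starts, which need not be the starts used in these cells. The median log2 ratio of RO-3066 over DMSO was 0.17 over the 36 measured members with a run within 10 bases and 0.12 over the 24 without. The ratios spread widely in both groups, from -0.25 to 0.43 with a run and from -0.29 to 0.37 without. Members with no start entry, Rplp1 among them, are in neither group, and a link between run and ratio was not tested.

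Levels are CPM, the summed UMIs of a gene in every 1000000 UMIs of the kept cells, and were at least 20 CPM in either library for 80 members, 47 large and 33 small. UMIs of 3′ ends are not divided by gene length, so a level counts captured ends and is compared between libraries rather than between genes. Large subunit members ranged from 874 CPM (Rpl10) to 7729 CPM (Rpl41) in DMSO and from 1114 CPM (Rpl36al) to 7808 CPM (Rpl41) in RO-3066. The lowest small subunit member was Rps27rt, a retrogene of Rps27, at 113 CPM in DMSO and 131 CPM in RO-3066, and Rps20 stood at 6934 CPM and 7650 CPM. Member genes lay on 19 chromosomes, most often on chromosome 7 (14 members), followed by chromosome 9 with 8 and chromosomes 11 and 17 with 7 each.

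The 3 members under 20 CPM were tissue-restricted paralogs of abundant members. Rpl3l, the striated muscle paralog of Rpl3, had 7 UMIs in DMSO and 3 in RO-3066, each in a separate cell. Rpl10l, the testis paralog of Rpl10, was detected in 0 of 5832 cells treated with DMSO and 0 of 3682 treated with RO-3066; for counting error only, 3 counts in place of 0 would be 0.0514% and 0.0815% of cells. Rpl39l, a testis-enriched paralog of Rpl39, had 134 UMIs in 36 of 5832 DMSO cells and 177 UMIs in 26 of 3682 RO-3066 cells. The Rpl39l UMIs were thus several per positive cell, at 0.617% and 0.706% of cells, while Rpl3 and Rpl39 themselves stood at 3348 and 4768 CPM in DMSO.

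Ribosomal protein genes have many processed copies in the genome, and 37 members shared at least 50% of the 31-base words of their last 300 transcript bases with another annotated gene. Rps2 had the most such copies, 16. For 7 members a near-identical copy was itself counted in the matrices, including the pair Rps27 and Rps27rt, Rpl10 with Rpl10-ps3, and Rpl36a with Rpl36a-ps1. Of all members, 22 overlapped another counted gene, 1 of them on the same strand. How reads were split among copies is not given in the sources used here, so the levels of these members are uncertain, Rps27rt in particular.

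Ribosomal protein UMIs were 29.3% of all UMIs in DMSO and 32.7% in RO-3066, a difference of 3.40 percentage points. The large subunit made up 16.2% and 17.9%, and the small subunit 13.2% and 14.8%. Both subunits were thus higher in RO-3066, by 1.78 and 1.62 points. Exact binomial intervals of these shares, at 95% and for counting error only, were under 0.02 points wide. The large subunit held 55.06% of ribosomal protein UMIs in DMSO and 54.78% in RO-3066, so the balance between subunits moved by 0.28 points. Whether such differences exceed the spread between cultures cannot be told from 1 library each.

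Cells within a library varied about as much as the libraries differed. The median cell held 30.3% in DMSO, with a 5th to 95th percentile range of 25.6% to 35.3% and an SD over cells of 3.15 points. In RO-3066 the median was 32.8%, the range 27.2% to 38.3% and the SD 3.79 points. The 2 distributions overlapped over most of their range. In UMIs rather than shares, the median cell held 7281.5 ribosomal protein UMIs and 16754 others in DMSO, against 11641.5 and 23119.5 in RO-3066, so both kinds were more numerous per RO-3066 cell.

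**Figure D1:**
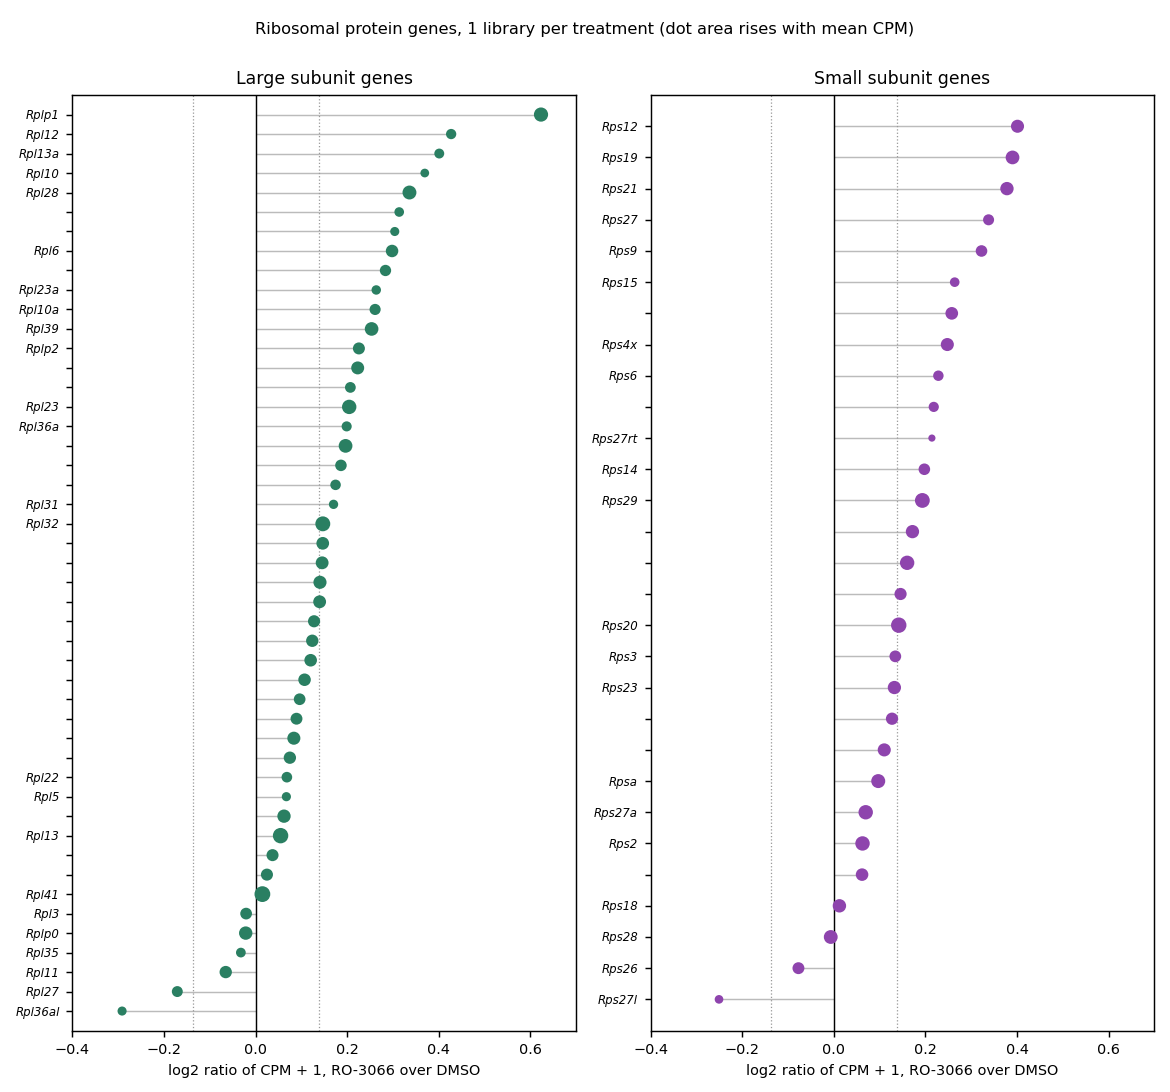
Log2 ratio of CPM + 1, RO-3066 over DMSO, for large and small subunit genes with at least 20 CPM, 1 library per treatment; 4 small subunit genes are not shown, and genes named in the text are labelled. Dot area rises with mean CPM and dotted lines mark 1.1-fold. Rplp1 stands apart at 0.62, most dots lie above 0, and Rpl27, Rpl36al and Rps27l lie beyond the left line.

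Across single genes the difference was small and broad. The median log2 ratio, of CPM plus a pseudocount of 1, was 0.15 over the 80 members, 0.15 over large and 0.16 over small subunit genes, against -0.06 over all 5760 genes with at least 20 CPM. It was above 0 for 70 of 80 members and for 41.9% of all these genes. At least 1.1-fold higher in RO-3066 were 45 members (56.3%), beside 25.4% of all genes, and at least 1.1-fold lower were 3, beside 37.1%. The large subunit contributed 26 and the small subunit 19 of the 45. At least 25% higher were 10 of 80 members (12.5%) beside 11.5%, a share near that of all genes, while 0 were lower by the same factor beside 13.3%. At 1.5-fold 1 member was higher beside 3.4%, and 0 were lower beside 2.29%. The share of members higher thus stood above that of all genes at 1.1-fold, close to it at 25% and below it at 1.5-fold. CPM add up to a fixed total, of which members held 29.3% in DMSO and 32.7% in RO-3066. A higher member share therefore lowers the other genes, so the all-gene values are not a background independent of the members.

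The transcript levels of the genes for the ribosomal stalk, which recruits elongation factors to the ribosome, diverged from each other. Rplp1, one of the paired acidic stalk proteins, stood at 4609 CPM in DMSO and 7098 CPM in RO-3066. Its fold of 1.54 (95% interval of the ratio of Poisson counts, 1.536 to 1.545, counting error only) was the highest of the 80 members. Its partner Rplp2 was 3298 CPM in DMSO and 3856 CPM in RO-3066, a fold of 1.17. Rpl12, which sits at the stalk base, was 1788 CPM and 2404 CPM, 1.34-fold higher in RO-3066. Rplp0, the scaffold that carries the acidic pairs, was 4993 CPM and 4919 CPM, a fold of 0.985. Of the 4 stalk genes 3 were at least 1.1-fold higher and 0 lower, beside 25.4% and 37.1% of all genes, with a median log2 ratio of 0.33. The genes for the 5S ribosomal RNA partners, which can also bind the p53 regulator Mdm2, were closer to even. Rpl5 was 1261 CPM in DMSO and 1321 CPM in RO-3066, and Rpl11 was 3999 CPM and 3822 CPM.

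Around the exit tunnel, 5 of 9 large subunit genes were at least 1.1-fold higher and 0 lower, beside 25.4% and 37.1% of all genes, with a median of 0.17. Rpl39, a small basic protein inside the tunnel, was 4768 CPM in DMSO and 5683 CPM in RO-3066. Rpl23a, which lies at the tunnel mouth where signal recognition particle docks, was 1348 CPM and 1618 CPM. Rpl31, also at the mouth, was 1301 CPM and 1464 CPM, and Rpl35 was the lowest of the 9 with 1712 CPM and 1674 CPM. Elsewhere in the large subunit, Rpl13a was 1571 CPM and 2074 CPM (1.32-fold), Rpl28 was 4898 CPM and 6183 CPM (1.26-fold), and Rpl10, which joins late near the catalytic centre, was 874 CPM and 1130 CPM (1.29-fold). Rpl6 (1.23-fold) and Rpl10a (1.198-fold) were also past 1.1-fold. The 5 large subunit genes with the most UMIs differed among themselves, with a fold of 1.01 for Rpl41, 1.04 for Rpl13, 1.11 for Rpl32, 1.15 for Rpl23 and 1.54 for Rplp1.

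At the low end of the large subunit stood Rpl36al and Rpl27. Rpl36al was 1364 CPM in DMSO and 1114 CPM in RO-3066, a fold of 0.817 (0.812 to 0.822). Its X-linked paralog Rpl36a went the other way, from 1815 CPM to 2083 CPM, a fold of 1.15. The levels of the pair therefore differed in opposite directions between the libraries. Rpl27, a Diamond-Blackfan anemia gene, was 2787 CPM and 2476 CPM, a fold of 0.888.

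Among small subunit genes at the mRNA entry and decoding sites, 2 of 6 were at least 1.1-fold higher, near the 25.4% of all genes, and 0 lower beside 37.1%. Rps9, at the entry channel, was 2843 CPM in DMSO and 3555 CPM in RO-3066. Rps15, whose tail reaches the decoding centre, was 1461 CPM and 1754 CPM. Rps3, which forms part of the entry channel, was 3173 CPM and 3482 CPM, just short of that limit. Rps2 (5972 CPM and 6237 CPM), Rps23 (4598 CPM and 5040 CPM) and Rps27a (5951 CPM and 6246 CPM), made as a fusion with ubiquitin, differed by less than 1.1-fold.

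At the mRNA exit side, 2 of 6 genes were likewise higher beside 25.4% and 0 lower beside 37.1%. Rps14, whose loss contributes to the 5q- syndrome, was 2964 CPM in DMSO and 3400 CPM in RO-3066. Rps26, which contacts mRNA upstream of the start codon, was 3588 CPM and 3401 CPM, a fold of 0.948, and Rps28 was 5459 CPM and 5434 CPM. The largest ratios of the small subunit lay outside these lists. Rps12 was 3986 CPM and 5264 CPM (1.32-fold), Rps19 was 4622 CPM and 6058 CPM (1.31-fold) and Rps21 was 4283 CPM and 5566 CPM (1.30-fold). Rps29 was 1.14-fold higher and Rps20 1.103-fold. Rps6, the target of the S6 kinases, was 2060 CPM and 2414 CPM, and the X-linked Rps4x was 4224 CPM and 5016 CPM.

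The Rps27 genes split as the Rpl36a pair did. Rps27 was 2392 CPM in DMSO and 3024 CPM in RO-3066, 1.26-fold higher, and Rps27rt followed with a fold of 1.16 (1.14 to 1.18), although its reads cannot be separated with certainty from those of Rps27. Rps27l, a paralog known as a p53 target, was 1036 CPM and 871 CPM, a fold of 0.840 (0.835 to 0.846). Over all kept cells it was the only small subunit member at least 1.1-fold lower. Of the 20 Diamond-Blackfan anemia genes listed, 9 were at least 1.1-fold higher, led by Rps19, and 1 was lower, Rpl27, beside 25.4% and 37.1% of all genes, with a median of 0.13. Some members close to even changed sign with the cells used. Among cells of 15000 to 40000 UMIs the log2 ratio of Rps26 was 0.04 in place of -0.08, and that of Rps28 0.04 in place of -0.01. With every cell at the same weight, Rpl41 was at -0.05 in place of 0.01, Rps18 at -0.03 in place of 0.01 and Rps27a at -0.01 in place of 0.07. With single bands of UMIs per cell and Pf4 quintiles set aside, Rpl3, Rpl35 and Rplp0 were above 0 only under median-ratio scaling. That scaling moves all genes up alike by 0.06. In the band with the most UMIs per cell, described below, Rpl3, Rpl35 and Rplp0 were at 0.19, 0.13 and 0.25.

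The difference depended on the UMIs per cell. Cells were placed in bands of total UMIs, and ribosomal protein genes held a falling share of UMIs from band to band in DMSO: 33.2% under 15000 UMIs, 31.1% from 15000 to 25000, 29.4% from 25000 to 40000, 27.9% from 40000 to 60000 and 26.7% over 60000. The RO-3066 shares in the same bands were 30.5%, 32.9%, 33.5%, 33.7% and 32.1%. The 2 libraries therefore crossed: RO-3066 was lower by 2.63 points under 15000 UMIs, and higher by 1.74, 4.13, 5.75 and 5.36 points in the bands above. The bands held 452, 2737, 1945, 346 and 352 DMSO cells and 352, 752, 1045, 701 and 832 RO-3066 cells. The RO-3066 library held many more of its cells in the upper 2 bands, so the pooled difference of 3.40 points mixes bands in unequal parts.

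**Figure D2:**
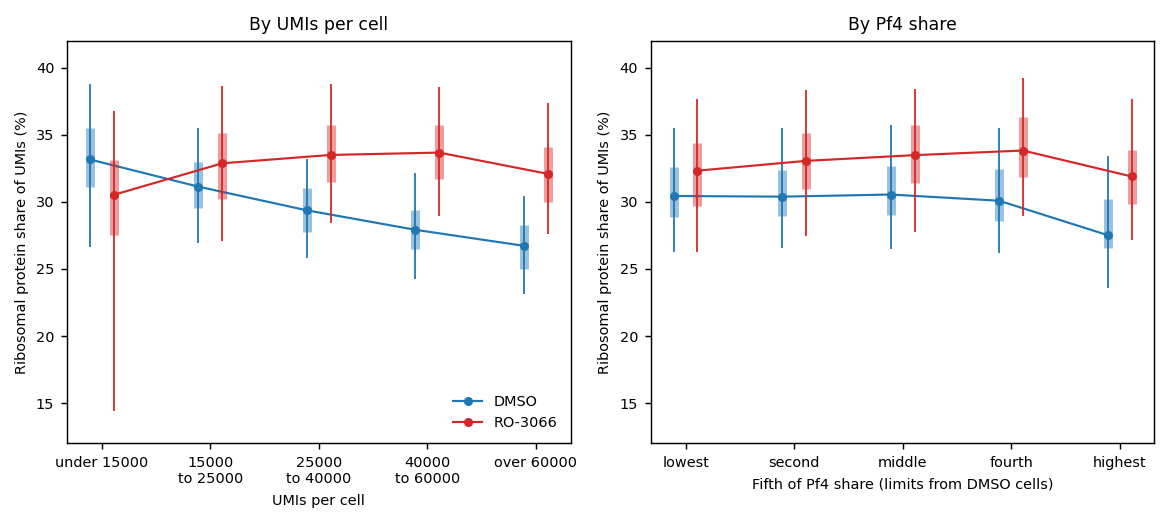
Ribosomal protein share of UMIs (percent) by band of UMIs per cell, left, and by quintile of Pf4 share with limits set on DMSO cells, right. Points are shares of summed UMIs, thick bars the 25th to 75th and thin lines the 5th to 95th percentile of cells, so they show the spread over cells and not over samples. The libraries cross between the lowest and the second band, and the RO-3066 point is higher in every Pf4 quintile.

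The lowest band differed from the rest in its spread as well. The 5th percentile of the RO-3066 cells under 15000 UMIs was 14.4%, against 26.6% in DMSO and at least 27.1% in the other RO-3066 bands. With cells under 10000 UMIs left out, 368 DMSO and 228 RO-3066 cells gave 33.2% and 30.9%, a difference of -2.29 points; this narrower band was chosen after the data were seen. Median mitochondrial shares by band ran from 1.45% to 1.64% in DMSO and from 1.61% to 1.77% in RO-3066, and the part of RNA quality in the lowest band was not tested.

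Most members followed the crossing. Under 15000 UMIs, 39 of 80 members were at least 1.1-fold lower in RO-3066 beside 25.6% of all genes, and 8 were higher beside 38.7%. From 15000 to 25000 UMIs, 31 members were higher beside 33.5%, a share near the background, and 4 lower beside 32.1%. In the 3 bands above, 51, 65 and 63 members were higher beside 28.6%, 24.7% and 24.8% of all genes, and 2 were lower in each beside 39.7%, 45.8% and 46.2%. Member medians on the log2 scale were -0.12, 0.07, 0.19, 0.27 and 0.25 from the lowest band to the highest. The same medians over all genes were 0.05, 0.00, -0.06, -0.10 and -0.11. Since CPM share a fixed total, these all-gene values and shares move against the member share and are not independent of it.

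Rplp1 had the highest ratio of the 80 members in the top band, with log2 ratios of 0.17, 0.33, 0.58, 0.79 and 0.92 from the lowest to the highest band. Within DMSO its level went down over the bands, from 5360 CPM to 3809 CPM, and within RO-3066 it went from 6011 CPM in the lowest to 7210 CPM in the highest. Rps19 ran alongside with 0.05, 0.27, 0.43, 0.58 and 0.59. Rplp0 passed from well below to above 0, with -0.56, -0.32, -0.12, 0.09 and 0.25. Its pooled ratio was near even although the band ratios differed in sign, and the pooled value mixes bands in unequal parts. In the lowest band it was 5629 CPM in DMSO and 3827 CPM in RO-3066, and in the highest 4334 CPM and 5161 CPM. The lowest band weighs little in the pooled ratio, with 5399428 of 174303432 DMSO UMIs and 3727560 of 163864131 RO-3066 UMIs.

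A few members stood apart from the others, in their course over the bands or in staying below 0. Rps15 had its highest ratio in the lowest band, 0.37, and its lowest in the highest band, 0.13. Rpl36al was below 0 in all 5 bands, from -0.20 to -0.40. Rpl27 was the other such member, between -0.12 and -0.23, with its lowest value in the lowest band. Rps27l was at 0.02 in the lowest band and at -0.41 in the highest, and in DMSO its level was 778 CPM in the lowest and 1170 CPM in the highest band. Across the 80 members, 24 were above 0 in all 5 bands and 36 in 4 of them. How many of all genes were so is not given here. Band by band, 25, 60, 73, 76 and 76 members were above 0, beside 56.8%, 50.6%, 44.0%, 37.4% and 36.8% of all genes.

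**Figure D3:**
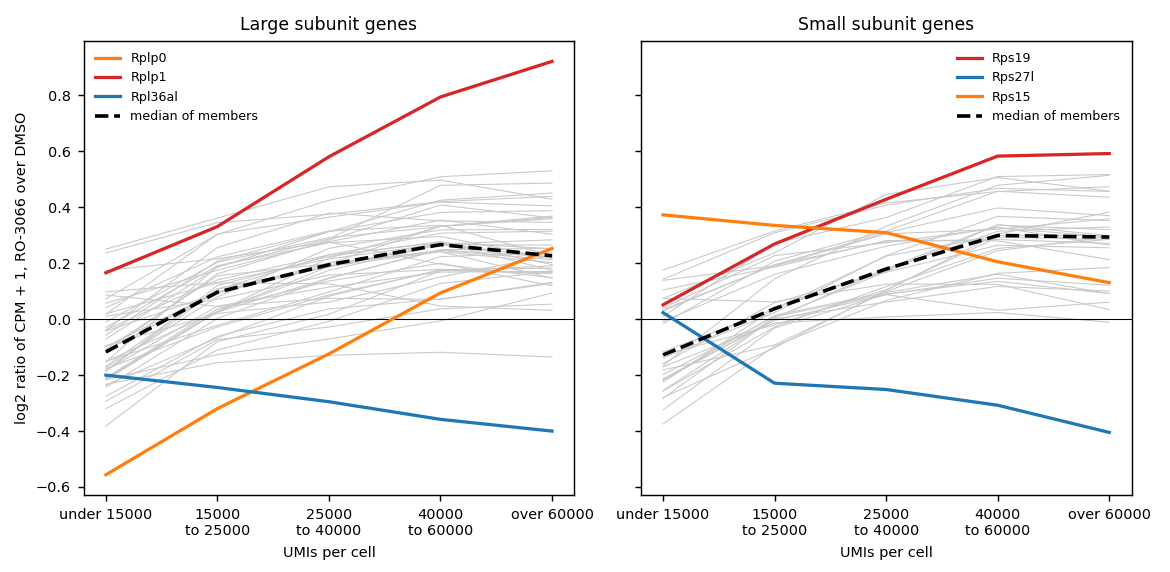
Log2 ratio of CPM + 1, RO-3066 over DMSO, in 5 bands of UMIs per cell, for 47 large and 33 small subunit genes. Grey lines are single genes, coloured lines the named ones and dashed lines the median of each panel. Rplp1 reaches 0.92 in the highest band, Rplp0 crosses 0, and Rpl36al, Rps27l and Rps15 go down while the median goes up.

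Pf4 share, the part of a cell's UMIs that came from Pf4, sorted cells by the abundance of a megakaryocyte transcript. Limits of 0.0175%, 0.0361%, 0.0957% and 0.384% cut the DMSO cells into quintiles and were applied to RO-3066 as well, where they held 1122, 791, 620, 553 and 596 cells. Ribosomal protein genes made up 30.4%, 30.4%, 30.5%, 30.1% and 27.5% of UMIs from the lowest to the highest quintile in DMSO. In RO-3066 the shares were 32.3%, 33.1%, 33.5%, 33.8% and 31.9%. RO-3066 was the higher library in every quintile, by 1.89, 2.67, 2.93, 3.74 and 4.37 points. Equal Pf4 share did not mean equal levels of the other megakaryocyte markers listed further on. Their summed share was 0.0368% in DMSO and 0.0592% in RO-3066 in the lowest quintile, and 0.168% and 0.272% in the highest.

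Of the 80 members, 31, 37, 38, 50 and 57 were at least 1.1-fold higher in RO-3066 across the quintiles, beside 27.7%, 25.6%, 27.9%, 26.7% and 26.5% of all genes. The member medians were 0.09, 0.12, 0.12, 0.17 and 0.20. At least 1.1-fold lower were 3, 3, 3, 4 and 3 members, beside 31.5%, 33.6%, 34.1%, 38.2% and 45.2%. In all 5 quintiles 60 members were above 0, and Rpl11, Rps27l, Rpl27 and Rpl36al were among those above 0 in none. How many of all genes were above 0 in all 5 is not given here. Quintile by quintile, 62, 68, 68, 68 and 73 members were above 0, beside 47.6%, 44.7%, 45.2%, 42.2% and 38.6% of all genes. Rplp1 ran from 0.40 in the lowest to 0.84 in the highest quintile, and Rplp0 from -0.22 to 0.17. Rps27l ran from -0.12 to -0.36 and Rps15 from 0.38 to 0.13.

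UMIs per cell moved with the Pf4 share. Median UMIs per cell ran from 21288 in the lowest to 36422 in the highest quintile of DMSO, and from 24957.5 to 82395.5 in RO-3066. Over cells, Spearman's rho between UMIs and Pf4 share was 0.41 in DMSO and 0.65 in RO-3066, as a description over cells of 1 library that share their total. The same measure between ribosomal protein share and UMIs was -0.53 in DMSO and 0.04 in RO-3066. With Pf4 share it was -0.25 and 0.09, and with the mitochondrial share -0.25 in both libraries.

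When cells were placed by both measures, 17 combinations of Pf4 quintile and UMI band held at least 20 cells in each library. RO-3066 had the higher ribosomal protein share in 14 of them, and the 3 in which it was lower were the 3 under 15000 UMIs. The differences ran from -3.06 points, in the lowest Pf4 quintile under 15000 UMIs, to 6.57 points in the fourth quintile from 40000 to 60000 UMIs. Among cells of 15000 to 40000 UMIs the difference was 3.08 points. Within these limits the contrast of the highest with the lowest Pf4 quintile in DMSO was -0.970 points, against -2.92 points over all kept cells. In RO-3066 it was -0.780 against -0.431 points, with only 33 cells in the highest quintile of that range.

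Within the DMSO library, cells over 40000 UMIs (698) were set against cells under 25000 (3189). At least 1.1-fold lower in the cells over 40000 UMIs were 57 members beside 27.6% of all genes, and 4 were higher beside 42.6%, with a member median of -0.21. Among the lowest were Rps4x and Rpl10a, both at -0.41, Rpl3 (-0.40) and Rps26 (-0.39). The 4 that were higher there were Rps27l (0.27), Rpl23a (0.26), Rps15 (0.21) and Rpl36al (0.18).

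Within RO-3066 the same contrast, of 1533 with 1104 cells, had 7 members lower beside 36.3% and 12 higher beside 29.8%, with a member median of 0.00. Rplp0 (0.28), Rpl23a (0.24) and Rpl41 (0.22) were the highest, and Rps26 (-0.30) the lowest. Rpl23a was thus among the highest and Rps26 among the lowest members in both libraries. Rplp0 and Rplp1 had opposite signs, at -0.28 and -0.38 in DMSO and 0.28 and 0.20 in RO-3066.

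**Figure D4:**
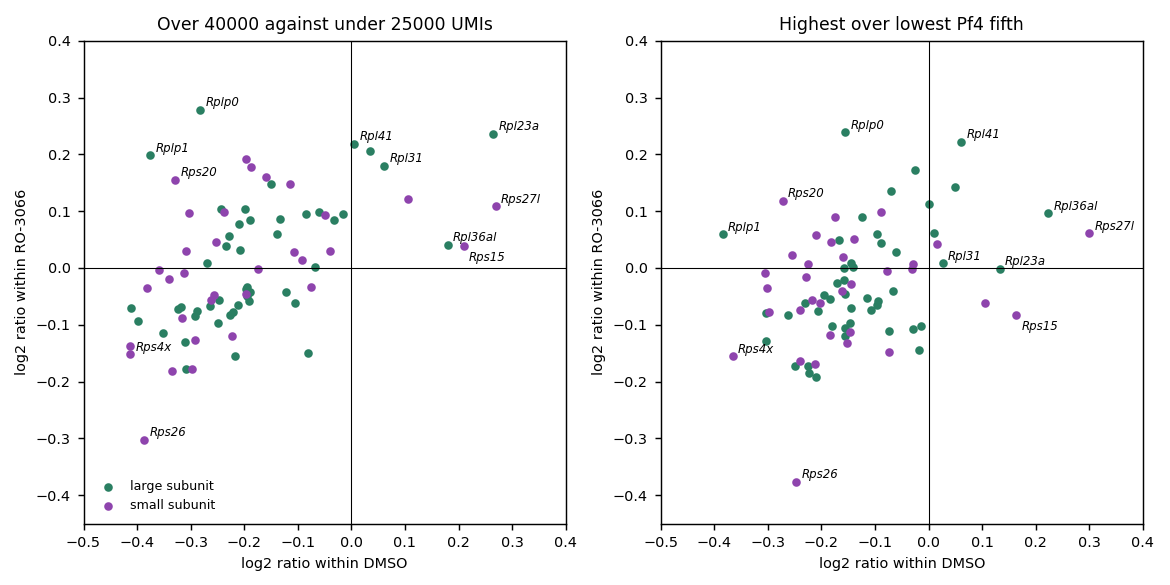
Each dot is 1 of 80 members, placed by its log2 ratio within DMSO (x) and within RO-3066 (y). Left, cells over 40000 against under 25000 UMIs; right, the highest against the lowest Pf4 quintile. Most dots lie left of 0 on the x axis and around 0 on the y axis; Rps26 is lowest on the y axis and Rplp0 highest in both panels.

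Between the highest and the lowest Pf4 quintile of DMSO, 49 members were at least 1.1-fold lower beside 32.1%, and 3 higher beside 35.1%. The 3 were Rps27l (0.30), Rpl36al (0.22) and Rps15 (0.16), and the lowest were Rplp1 (-0.38) and Rps4x (-0.37). Among cells of 15000 to 40000 UMIs the count lower was 8 beside 33.7%, so fewer members passed the fold among cells of closer UMI totals. In RO-3066 10 members were lower beside 43.1% and 4 higher beside 29.0%, led by Rplp0 (0.24) and Rpl41 (0.22), with Rps26 the lowest at -0.38.

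To ask which members kept company with the others, cells were thinned to 10000 UMIs and the share of each gene was set against that of all other members. Spearman's rho had a median over members of 0.44 in DMSO (5748 cells) and 0.49 in RO-3066 (3558 cells). The highest were Rps20 in DMSO and Rps19 in RO-3066, both at 0.66. Rpl23a was the lowest in both libraries, at -0.25 and -0.23. Rps15 (-0.15 and -0.19) and Rps27l (-0.14 and -0.02) were also below 0. In thinned DMSO cells the mean counts were 12.9 UMIs for Rpl23a, 14.1 for Rps15 and 9.95 for Rps27l, against 72.8 for Rps20, and the part of low counts in these values was not tested. Summed over members, the large and small subunit shares of a thinned cell had a rho of 0.90 in DMSO and 0.91 in RO-3066.

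Other genes of the translation machinery gave a mixed picture. Fau and Rack1, ribosome components that the symbol rule leaves out, were both at least 1.1-fold higher in RO-3066. Fau, made as a fusion of a ubiquitin-like protein with a small subunit protein, was 4182 CPM in DMSO and 5067 CPM in RO-3066. Rack1, the scaffold protein of the small subunit, was 1609 CPM and 2036 CPM. Of 20 other translation genes known for start-site pyrimidine runs, 7 were higher and 5 lower by at least 1.1-fold, beside 25.4% and 37.1% of all genes, with a median of 0.03. They ran from Npm1 (4094 CPM in DMSO and 3458 CPM in RO-3066) to the elongation factor Eef2 (632 CPM and 912 CPM).

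Lists of genes that regulate or build ribosomes were counted in the same way, where 25.4% of all genes were higher and 37.1% lower, with a median of -0.06. Of 14 measured regulators of translation and of mTORC1, 9 were at least 1.1-fold lower and 2 higher, from Larp4 (-0.34) to the kinase gene Rps6ka1 (0.47). Of 12 measured genes on a list of chaperones and assembly factors of ribosomal proteins, 10 were lower and 0 higher, from Bccip (-0.48) to Naca (-0.05). Naca encodes a factor that binds new protein chains at the ribosome, and was also counted among the translation genes with start-site pyrimidine runs. Of 76 measured mitochondrial ribosomal protein genes, 54 were lower and 3 higher, with a median of -0.24, from Mrpl50 (-0.61) to Mrpl52 (0.20). The cytosolic members thus leaned one way and the mitochondrial set the other. Of the 6 measured relatives that the rule leaves out, Rpl22l1, a paralog of Rpl22, was the highest at 0.35 and Rpl7l1 the lowest at -0.46.

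Marker genes describe the cells behind these values. Of the stem and progenitor list 12 of 14 genes were measured, and 6 were at least 1.1-fold higher and 4 lower in RO-3066, beside 25.4% and 37.1%. Kit was at 68.9 CPM in DMSO and 101 CPM in RO-3066 and Hlf at 61.3 and 72.2 CPM. Cd48 was at 45.5 and 16.1 CPM, Ly6a at 20.7 and 14.1 CPM, and Procr, not measured by the 20 CPM limit, at 4.60 and 4.27 CPM. The 20 megakaryocyte markers, 14 of them measured, summed to 6001 CPM in DMSO and 5753 CPM in RO-3066. Pf4 itself was 5107 and 4243 CPM, while 13 measured markers were at least 1.1-fold higher in RO-3066, beside 25.4% of all genes. By band of UMIs the Pf4 share in DMSO ran from 0.101% of UMIs in the lowest band to 1.48% in the highest. In RO-3066 it was 0.0772% in the lowest band, 0.0425% from 15000 to 25000 UMIs and 0.784% in the highest. The part of megakaryocyte-marked cells in the ribosomal protein difference was not tested, and without the highest Pf4 quintile that difference was 2.81 points. The markers Csf1r, Cd3e and Col1a1 were at or near 0, with at most 11 UMIs in a library. Few genes of the other lists were measured, with 2 of 10 erythroid, 2 of 10 neutrophil and monocyte, 1 of 8 lymphoid, 1 of 7 endothelial and stromal and 0 of 5 mast and basophil markers. Their summed levels were 524 and 879 CPM for the erythroid, 145 and 142 CPM for the neutrophil and monocyte, 44.0 and 67.3 CPM for the lymphoid, 27.8 and 41.2 CPM for the endothelial and stromal, and 2.96 and 7.18 CPM for the mast and basophil list, DMSO first. Other genes of these lists were present, such as Lyz2 (43.4 and 69.1 CPM), Prtn3 (96.5 and 70.4 CPM) and Nkg7 (38.9 and 65.0 CPM), and Col1a2 was at 1.66 and 8.81 CPM. The part of such cells in the ribosomal protein values was not tested. Car2 and Hbb-bt, on the erythroid list, were at 310 and 199 CPM in DMSO and 406 and 452 CPM in RO-3066.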

How the data were processed

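The authors deposited raw UMI counts, in 1 matrix of genes by barcodes for DMSO and 1 for RO-3066, from the 10x Genomics 3′ workflow per the labels. The submitters' processing notes name mm10 and Cell Ranger 5.0.1, the file headers Cell Ranger 7.1.0; whether intron reads were counted is not given in the sources used here. The matrices held 6160 DMSO barcodes with 188022321 UMIs and 3882 RO-3066 barcodes with 171821236 UMIs, and 7 barcodes occurred in both.

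Kept barcodes had 1000 UMIs and 500 genes or more and no more than 10% of UMIs from mitochondrial genes. Doublets were scored among 50 neighbours in 30 principal components with an assumed rate of 0.8% for every 1000 barcodes, and 302 cells were removed from DMSO and 116 from RO-3066. Kept UMIs totalled 174303432 in DMSO and 163864131 in RO-3066. Gene models are from GENCODE vM21 (mm10), starts from RefSeq (GRCm38.p6).

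With 1 library per treatment no test was made. Counts past a fold are set beside the share of all genes with at least 20 CPM past it. Fold intervals (ratio of Poisson counts) and share intervals (Clopper-Pearson) are exact, at 95%, and cover counting error only. The floor of detection is 3 counts. The code for folds and their intervals was tested on simulated data. Python 3.11.15, numpy 2.4.6, scipy 1.17.1, pandas 2.3.3 and scikit-learn 1.9.0 were used.

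The members and gene lists were chosen with earlier results of these data known. Members named are, per subunit, the 5 with the most UMIs, the 5 highest and 5 lowest ratios, the 3 highest and 3 lowest in each within-library contrast, those under 20 CPM, paralog pairs, the stalk, the 5S pair, Rps6, Rps14 and Rps19; of other lists, the highest and lowest ratio. Fau, Rack1 and the marker genes were named beyond this rule. Some genes that these rules take are not reported here. Alternatives were scaling by median ratios, the same weight for every cell or stratum, thinning, no removal of doublets, no filter on barcodes, at most 5% mitochondrial UMIs, narrower UMI ranges, other Pf4 limits, pseudocounts of 5, and minimum levels of 5 and 100 CPM.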

Additional observations from a re-analysis of the deposited data

Results flagged for a closer look

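Several contrasts between cells over 40000 and under 25000 UMIs had opposite signs in the 2 libraries. Each library is 1 sample, so these differences were not tested. The ribosomal protein share of the first minus that of the second was -4.23 percentage points in DMSO and 0.157 in RO-3066.

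On the log2 scale, 7 members differed in sign and passed 1.1-fold in both libraries. In DMSO 42.6% of all genes were at least 1.1-fold higher and 27.6% lower in this contrast, and in RO-3066 29.8% and 36.3%. How many of all genes passed with opposite signs is not given here, so the 7 have no background. In the values that follow, DMSO comes first and RO-3066 second. In the large subunit, Rplp0, the stalk scaffold, had -0.28 and 0.28, Rplp1, its acidic partner, -0.38 and 0.20, and Rpl28 -0.15 and 0.15. In the small subunit, Rps20 had -0.33 and 0.16, Rps23, near the decoding centre, -0.20 and 0.19, and Rps27a, the ubiquitin fusion, -0.16 and 0.16. Rps6, the S6 kinase substrate, had -0.19 and 0.18. Rplp0 was also the member with opposite values between the highest and the lowest Pf4 quintile, -0.16 in DMSO and 0.24 in RO-3066.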

How the results depend on the processing

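No paired analysis was possible because each treatment had 1 library and the result comes from no test. The difference in ribosomal protein share, 3.40 points, had the same sign under each alternative run. It was 2.44 with every cell at the same weight, 2.63 thinned, 3.38 with all barcodes, 3.41 at a mitochondrial limit of 5%, 3.08 in cells of 15000 to 40000 UMIs, 2.91 with equal strata, 2.81 without the highest Pf4 quintile, 3.51 without mitochondrial UMIs and 3.54 with ribosome components outside the symbol rule added. Median-ratio scaling, which moved all genes by 0.06, gave a large subunit median of 0.20 and 17 members at least 25% higher, against 10; with every cell at the same weight 5 were, and the small subunit median was 0.11, as when thinned (0.11). Members at least 1.1-fold higher numbered 33 to 58. No share of all genes under the same setting is set beside these counts, so they show only how the member counts moved.

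In DMSO the Pf4 contrast was -2.56 points without Pf4 UMIs, -2.53 without the megakaryocyte list, -0.970 in cells of 15000 to 40000 UMIs, -2.42 with equal weight, and -4.39, -0.0886 and -0.670 in the bands under 15000, 15000 to 25000 and 25000 to 40000. The RO-3066 Pf4 contrast changed sign: -0.0407 with its own quintiles, -0.0798 without Pf4, -0.0102 without the list, -0.780 in 15000 to 40000, 0.0259 with equal weight, -1.31 in 25000 to 40000 and 1.26 in 40000 to 60000; the cause was not tested. The UMI contrast in DMSO was -4.93 by quintiles, -2.97 without the highest Pf4 quintile, -3.88 with doublets and -4.09 with equal weight; in RO-3066 these were 0.358, 0.805, 0.205 and 1.104. The difference under 15000 UMIs was -2.29 from 10000 up, a band added after seeing the data. The large subunit part of ribosomal protein UMIs moved by -0.251, -0.237 and -0.179 points with equal weight, thinned and without the highest Pf4 quintile.

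Depth gives the 3 members under 20 CPM no usable ratio. Thinning to 10000 UMIs moved 42 of 49 named member ratios beyond their counting intervals. It also gives every cell the same weight, which without thinning moved 43 of them, so the part of depth was not tested. The lack of replicate libraries limits every difference given here.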
